A study of Mus musculus with 8 samples.

Results

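The cytosolic ribosomal proteins were examined in AML12 cells with stable expression of Zfp125, set against AML12 cells carrying the empty vector (EV), on 4 arrays of each kind. They were taken as every transcript cluster, the array's set of probes for a transcribed locus, whose annotation gives a symbol beginning with Rpl or Rps and a digit, or with Rplp and a digit. Kinases of the Rps6k family and symbols marked as pseudogenes were left out. A cluster that names a pseudogene beside a matching symbol was kept. The rule found 165 of 41345 clusters, and these carry 82 gene symbols. Of the 165 clusters, 107 belong to the large subunit and 58 to the small subunit, and 57 name several symbols. The rule used names alone and no measured value, though it was set with earlier results of these data known.

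AML12 is a line of mouse hepatocytes, and Zfp125 encodes a zinc finger protein. Cells of both groups had been selected with G418 and were kept in control medium, so selection and medium were shared. The labels name neither the promoter that drives Zfp125 nor the number of clones behind a group, and whether the 4 samples in each were separate cultures is not stated. No cluster in these tables is named Zfp125, so its level is not analysed here and the labels were not checked against it. All values below are log2 expression values as deposited. Every difference is Zfp125 minus EV on that scale, a difference is given with its standard error, a mean with its SD, and n = 4 arrays for each group.

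A ribosome joins a large and a small subunit, each built from ribosomal RNA and many proteins that are made in step with each other. The mRNAs of these proteins begin with a run of pyrimidines, the terminal oligopyrimidine (TOP) motif, through which mTOR and the binding protein Larp1 set chiefly their translation. Many of the genes also hold small nucleolar RNAs (snoRNAs) in their introns. These are cut from the intron after splicing and guide chemical changes of ribosomal RNA, ribose methylation for the Snord class and pseudouridylation for the Snora class. A host gene therefore gives 2 products, an mRNA and a snoRNA, whose levels depend on separate steps of decay.

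To show the sequences behind these features, 40 bases around the annotated start of 7 members are printed below, 20 before it and 20 from it on, in the direction of transcription. They come from RefSeq, build GRCm38.p6, and capitals mark the longest run of C and T that begins with C. These members were chosen because the results turn on them, apart from Rps6, which shows a run across the annotated start. The windows of Rpl37 and Rplp2 were also read and are not printed. That of Rpl37 holds no C followed by at least 4 bases of C or T, and the run of Rplp2 spans the annotated start.
Rps6, chr4:86857348-86857387, minus strand: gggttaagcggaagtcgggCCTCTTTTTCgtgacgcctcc
Rpl28, chr7:4792945-4792984, plus strand: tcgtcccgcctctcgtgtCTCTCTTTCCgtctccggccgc
Rpl13a, chr7:45128726-45128765, minus strand: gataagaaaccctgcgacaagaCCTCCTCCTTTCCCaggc
Rpl13, chr8:123102330-123102369, plus strand: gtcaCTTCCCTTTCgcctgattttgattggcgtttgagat
Rpl4, chr9:64173367-64173406, plus strand: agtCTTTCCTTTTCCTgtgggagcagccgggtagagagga
Rps12, chr10:23787190-23787229, minus strand: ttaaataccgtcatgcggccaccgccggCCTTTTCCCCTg
Rpl5, chr5:107900508-107900547, plus strand: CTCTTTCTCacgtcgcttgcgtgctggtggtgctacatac
The run spans the annotated start in Rps6 and Rpl28, lies before it in Rpl13, Rpl4 and Rpl5, and lies after it in Rpl13a and Rps12. Whether the annotated base is the one used in AML12 cells was not measured.

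RefSeq promoters were found for 66 member genes, 78 promoters in all. A C at the first transcribed base followed by 4 bases of C or T was present in 15 of the 78, 19.2%, against 2.51% of all 32851 promoters. The letters CTTTC on the sense strand, from 20 bases before to 20 after the start, were present in 20, 25.6%, against 5.49% of all promoters. CGGAAG, the core of ETS family sites such as those of Gabpa, was searched on both strands of the whole 300 bases. It was present in 46, 59.0%, against 16.9% of all promoters. Promoters of snoRNA hosts, taken by RefSeq position, numbered 16, and those of other members 62. CGGAAG was present in 13 and 33 of these, CTTTC in 7 and 13, and the pyrimidine start in 1 and 14. A match is a description of the sequence and not a bound site.

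No ribosomal protein cluster passed the test in Zfp125 cells. Of 165 clusters 0 were called at an adjusted p under 0.05 with limma, against 61 of all 41345 clusters, which is 0.148% (0.0242% higher and 0.123% lower). At that share 165 clusters would give few calls or none. The lowest adjusted p of a member was 0.123. At an unadjusted p under 0.05, 7 members were higher and 4 lower, against 4.91% and 4.52% of all clusters. Of the 7, 3 also name a snoRNA. All 4 Zfp125 arrays were above all 4 EV arrays for 5 members and below them for 9, against 3.2% and 3.03% of all clusters.

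The differences ranged from -0.37 to 0.66 with a median of -0.04. The highest was that of a cluster that also names Snord68, and without clusters that name a snoRNA the highest was 0.48. Of 165 clusters 148, 89.7%, differed by less than 0.25, against 84.2% of all clusters. The 95% confidence interval of the difference lay within 0.5 of 0 for 142 members. Spread within a group was narrow, with a median SD of 0.114 over the members and 0.173 over all clusters. The difference was positive for 62 members, 37.6%, against 49.7% of all clusters, whose median difference was -0.00095. An array measures a transcript against the rest of the RNA on it, so fewer cells of a kind and less RNA per cell cannot be told apart here.

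Brighter clusters gave the tightest values. Among the 63 members with a mean level above 8 that name no snoRNA, a level set after the values were seen, the interval lay within 0.5 of 0 for all 63 and the difference was under 0.25 for 62. Their median difference was -0.07, with 12 of 63 positive, counting each of 6 Rps12 clusters that hold identical values, at -0.13. Of the 1499 clusters of the whole table above that level 77.6% differed by less than 0.25, 10 were called, and the median difference was 0.01.

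**Figure D1:**
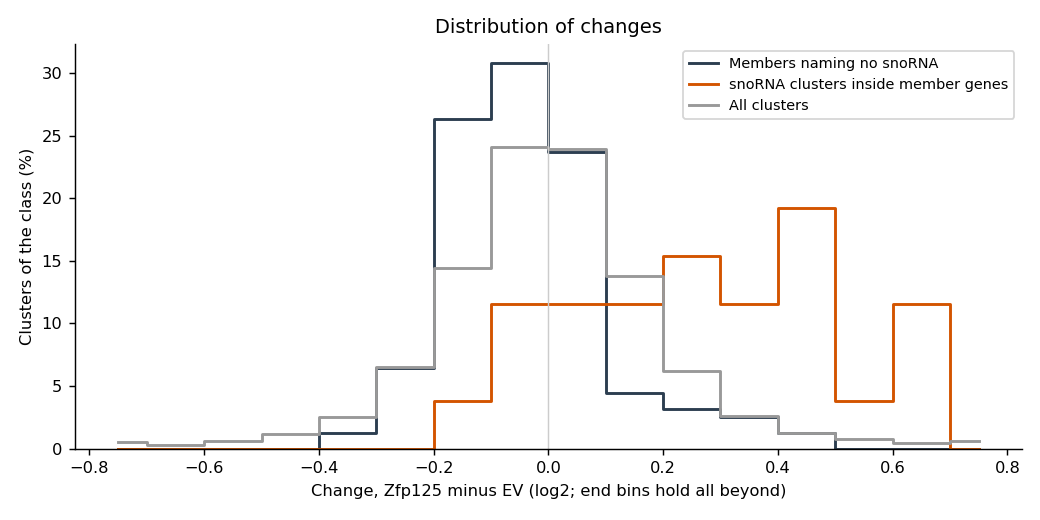
Share of clusters (%) by difference, Zfp125 minus EV on the log2 scale, in bins of 0.1, for the members that name no snoRNA (n = 156), the snoRNA clusters inside member genes (n = 26) and all clusters (n = 41345). The members gather just below 0 with a median of -0.05, and the snoRNA clusters spread to the right with a median of 0.28.

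Rpl28, a large subunit protein, was the first of the members by mean signal. Its levels were 11.81, 11.80, 11.74 and 11.93 on the Zfp125 arrays, against 12.15, 11.97, 11.93 and 11.99 on the EV arrays. The groups met at a single Zfp125 array, the fourth, which lay just above the lowest EV array. The difference was -0.19 ± 0.09 (adjusted p = 0.539), with a 95% interval from -0.39 to 0.00. A dimmer Rpl28 cluster, at a mean level of 6.22, differed by -0.08 ± 0.09. Rpl4, which lines the exit tunnel of the nascent chain, had levels of 11.20, 11.17, 11.25 and 11.26 in Zfp125 cells, against 11.29, 11.21, 11.12 and 11.09 in EV cells. The groups overlapped throughout, and the difference was 0.04 ± 0.08. Rpl23 was also level between groups, at 11.24 ± 0.01 in Zfp125 cells and 11.23 ± 0.10 in EV cells. Rpl21 and Rpl29, likewise among the brightest members, differed by -0.07 ± 0.08 and -0.01 ± 0.08.

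**Figure D2:**
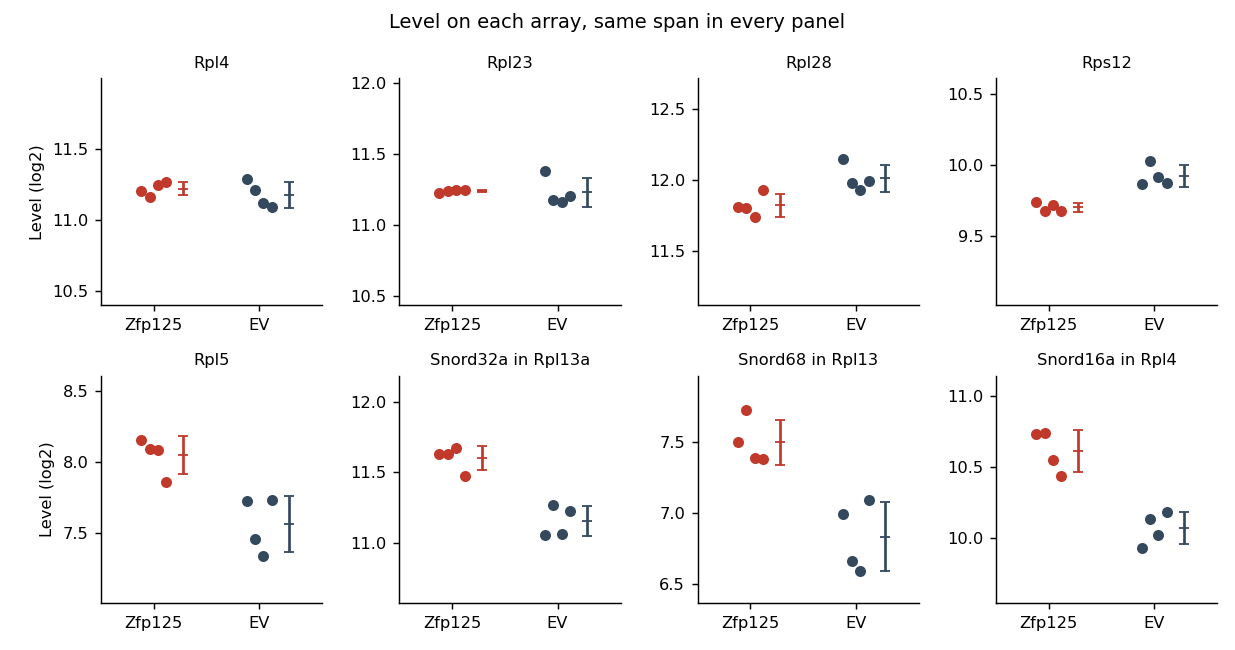
Level (log2) on each of the 4 Zfp125 and 4 EV arrays for 5 clusters of ribosomal protein genes and 3 clusters of snoRNAs inside such genes, with the group mean and SD beside the points and the same axis span in every panel. Rpl4 and Rpl23 overlap between groups, Rps12 lies lower and Rpl5 and the 3 snoRNA clusters higher on every Zfp125 array, and none of these was called.

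Most genes are measured by more than 1 cluster, so each gene was also followed through its brightest cluster that names no snoRNA. Over the 82 symbols the median difference was -0.07 with a range from -0.31 to 0.48, and 25 were positive. At an unadjusted p under 0.05, 1 was higher, Rpl5, and 2 were lower, Rpl37a and Rps12, against 4.91% and 4.52% of all clusters. Of 48 genes with several such clusters, 23 had clusters of both signs. Some of these clusters carry a neighbouring gene as well, as for Rpl13a, whose cluster also names Flt3l, and Rpl24, whose clusters also name Zbtb11.

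**Figure D3:**
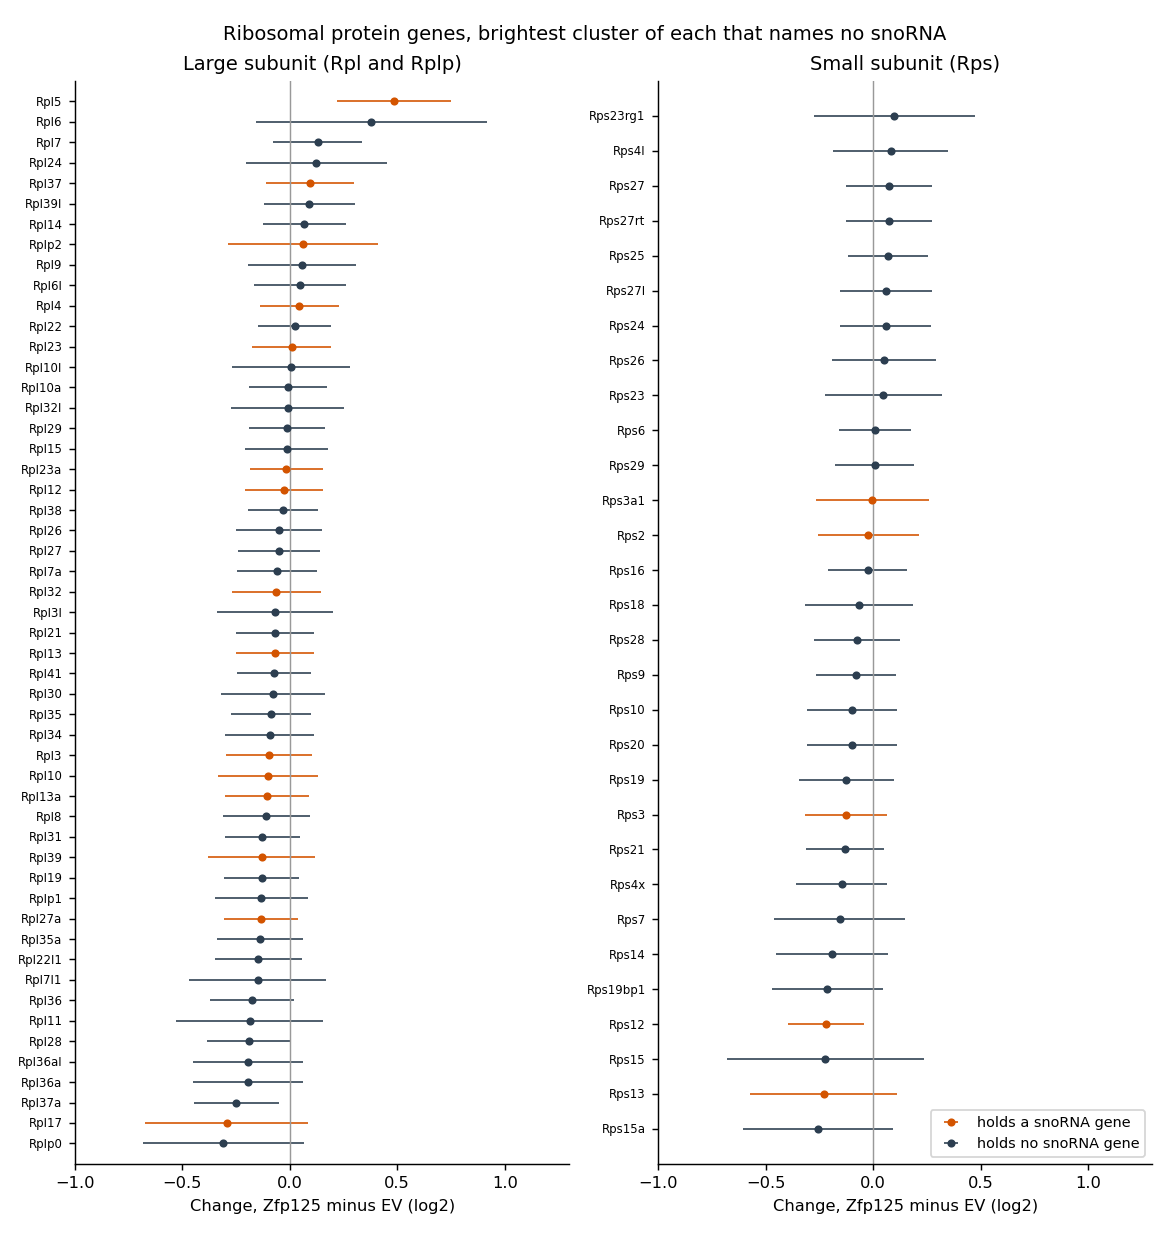
Difference (Zfp125 minus EV, log2) with its 95% confidence interval for the brightest cluster of each of 82 gene symbols that names no snoRNA. Genes are ordered within the large and the small subunit, and those that hold a snoRNA gene by RefSeq position are in orange. Of the 82 intervals, those of Rpl5, Rpl37a and Rps12 exclude 0, and no difference was called.

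Among the large subunit proteins, Rpl5 stood furthest to the positive side. Rpl5 carries the small ribosomal RNA of the large subunit into the particle together with Rpl11, and both can bind Mdm2 when assembly is disturbed. Its brighter cluster, which also names a processed copy, had levels of 8.16, 8.09, 8.09 and 7.86 in Zfp125 cells, against 7.73, 7.46, 7.34 and 7.73 in EV cells. Every Zfp125 array was above every EV array. The difference was 0.48 ± 0.12, a 1.40-fold higher mean, and it did not pass the test (adjusted p = 0.202). The other Rpl5 cluster, at a mean level of 4.67, differed by 0.05. Rpl11 differed by -0.19 ± 0.15. Snord21, which lies in Rpl5, has no cluster here.

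Rpl37a, a zinc-binding protein of the large subunit, had levels of 8.71, 8.75, 8.72 and 8.52 in Zfp125 cells, against 8.96, 8.98, 8.81 and 8.96 in EV cells. Every Zfp125 array was below every EV array, and the difference was -0.25 ± 0.09 (adjusted p = 0.397). A dimmer Rpl37a cluster differed by 0.06. Rpl35, which sits at the tunnel exit, gave -0.37 ± 0.13 in its dimmest cluster, -0.10 ± 0.08 in the next and -0.09 ± 0.08 in its brightest. Rpl6 differed by 0.38 ± 0.24, with an interval from -0.16 to 0.92, the widest of the 82. At the ends of the signal range, Rpl32l and Rpl10l, both below the median level of all clusters, differed by -0.01 ± 0.12 and 0.00 ± 0.12.

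The stalk of the large subunit, where elongation factors dock, is built on Rplp0 with copies of Rplp1 and Rplp2. Rplp0 had levels of 7.50, 6.95, 7.29 and 6.79 in Zfp125 cells, against 7.54, 7.52, 7.15 and 7.57 in EV cells. The groups overlapped and the difference was -0.31 ± 0.17 (adjusted p = 0.623). A dimmer Rplp0 cluster, at a mean level of 5.77, differed by -0.03 ± 0.11. Rplp1 averaged 10.88 ± 0.07 in Zfp125 cells and 11.02 ± 0.14 in EV cells, a difference of -0.13 ± 0.10. Rplp2 differed by 0.06 ± 0.16 in a cluster at a mean level of 4.69. Its brighter cluster, which also names Snora52, differed by -0.10 ± 0.09. Over the 6 stalk clusters the median difference was -0.08, and 0 were called.

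In the small subunit, Rps12 had the most clusters. Rps12 is a protein of the small subunit head, and its gene holds Snora33 and Snord100. It is measured by 9 clusters, 6 of which hold identical values and count as 1 measurement. The brightest had levels of 9.74, 9.67, 9.72 and 9.67 in Zfp125 cells, against 9.86, 10.03, 9.91 and 9.87 in EV cells, a difference of -0.22 ± 0.08 (adjusted p = 0.408). Another, at a mean level of 7.78, also names pseudogenes of Rps12 and differed by -0.25 ± 0.10, and 1 more differed by -0.16 ± 0.08. In these 3 clusters every Zfp125 array was below every EV array. Over all 9 clusters the difference ranged from -0.25 to -0.13.

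The other small subunit members with the lowest unadjusted p-values were dim clusters of genes that have a brighter one. Rps18, which lies at the interface of the subunits in the head, gave 0.43 ± 0.11 in a cluster at a mean level of 4.91 (adjusted p = 0.235) and -0.07 ± 0.11 in its brightest. Rps20 gave 0.35 ± 0.09 at a mean level of 2.80 (adjusted p = 0.245) and -0.10 ± 0.09 in its brightest. Rps24 gave 0.30 ± 0.16 in its dimmest cluster and 0.06 ± 0.09 in its brightest. For Rps18 and Rps20 the dimmer and the brightest cluster thus differed in sign. Rps6, the classic substrate of S6 kinases, differed by 0.01 ± 0.08. The dimmest clusters of Rps26 and Rps28 differed by -0.12 ± 0.16 and -0.02 ± 0.17.

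The annotation also holds paralogues, and some of these copies can stand in for a ribosomal protein in some tissues. Rpl22l1, the copy of Rpl22 in the large subunit, had levels of 4.08, 3.86, 4.07 and 4.06 in Zfp125 cells, against 4.12, 4.29, 4.11 and 4.13 in EV cells. The groups did not overlap, and the difference of -0.15 ± 0.09 was not called (adjusted p = 0.669). Rps27l, a copy that p53 induces, differed by 0.06 ± 0.10, and Rpl3l, the muscle form of Rpl3, by -0.07 ± 0.12. Rpl7l1 differed by -0.15 ± 0.14, Rpl39l by 0.09 ± 0.09 and Rps4l by 0.08 ± 0.12. Rpl36al shares its clusters with Rpl36a, and Rps27rt shares its cluster with Rps27, so these pairs cannot be separated here. Rps19bp1 meets the name rule but encodes a binding partner of Rps19 and not a ribosomal protein, and it differed by -0.21 ± 0.11.

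Neither subunit held a called member. The median difference was -0.03 over the 107 large subunit clusters and -0.08 over the 58 small subunit clusters. At an unadjusted p under 0.05, which 4.91% of all clusters passed as higher and 4.52% as lower, 5 large subunit clusters were higher and 2 lower, and 2 small subunit clusters were higher and 2 lower. These counts are near those shares. Without clusters that name a snoRNA, 2 large subunit clusters were higher and 2 lower. The gap between the medians was 0.05, while the gap measured array by array had an SD within groups of 0.03 and overlapped between Zfp125 and EV arrays. With the identical clusters of Rps12, Rps19 and Rpl23a counted once each, which leaves 158 clusters, the gap was 0.00379. Over genes, the median was -0.07 for both the 52 large subunit and the 30 small subunit symbols. Without replicate 2 of the EV cells the gap was 0.00659, without replicate 4 of the EV cells 0.0155, and without replicate 3 of the Zfp125 cells 0.0128.

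**Figure D4:**
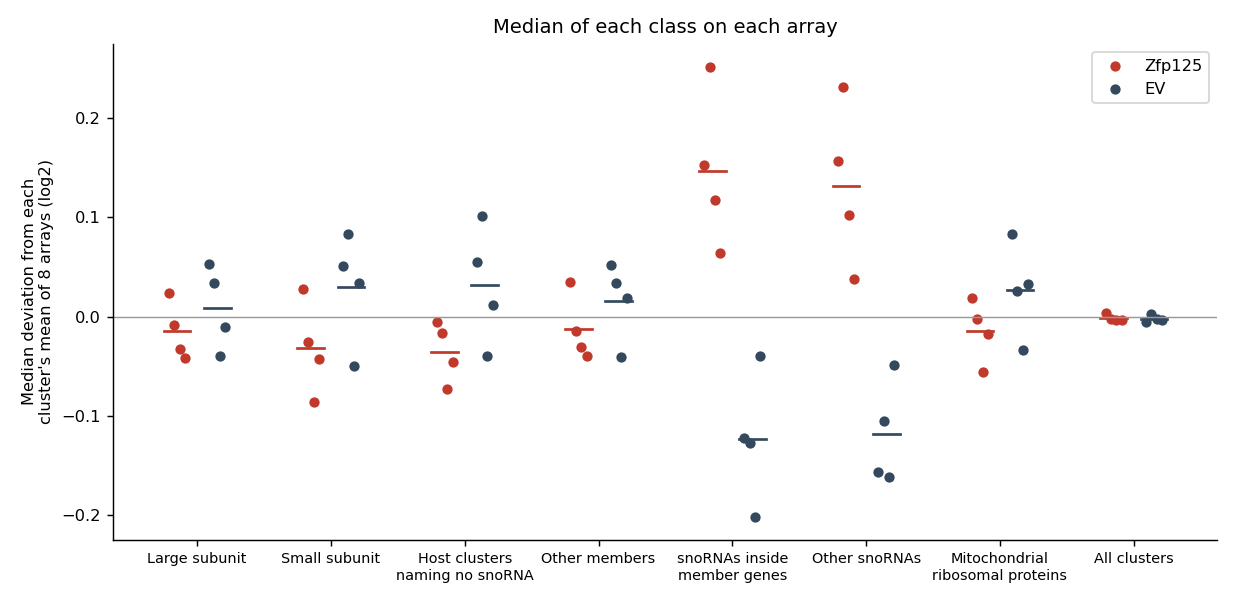
Median over the clusters of each class of the deviation from each cluster's mean over 8 arrays (log2), for the 4 Zfp125 and the 4 EV arrays, with the group means as bars. In the large and small subunit, the hosts, the other members and the mitochondrial ribosomal proteins the groups overlap, and in both snoRNA classes, identical clusters of other snoRNAs counted once, every Zfp125 array lies above every EV array.

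By RefSeq positions 20 member genes hold a snoRNA gene, and their 58 clusters were set against the 107 of the other members. A textbook list of hosts, which gives 72 host clusters, also counts Rpl7a, Rpl21, Rpl30 and Rps20. These stand here among the other members. The median difference was -0.06 for hosts and -0.03 for the others, again with 0 called in either. Of the host clusters 9 also name the snoRNA itself, and these had a median of 0.14 with 7 of 9 positive. Without them the median of the hosts was -0.09, with 12 of 49 positive, counting each of the 6 identical Rps12 clusters. The gap between hosts and others was -0.03 with all clusters, -0.06 without those 9 and 0.00406 with identical clusters counted once. Array by array the gap had an SD within groups of 0.02, and the Zfp125 and EV arrays overlapped. It was -0.000360 without replicate 2, -0.00394 without replicate 3 and -0.0485 without replicate 4 of the EV cells. Without replicates 1 and 3 of the Zfp125 cells, left out singly, it was -0.0168 and -0.00525.

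Most snoRNA clusters inside these genes had positive differences, though none passed the test. Of 30 snoRNAs placed in member genes, 25 have a cluster, 26 clusters in all. The difference was positive for 22 of the 26, 84.6%, with a median of 0.28 and a range from -0.11 to 0.68. By the adjusted p 0 of 26 were called, against 0.148% of all clusters, and 14 were higher and 0 lower at an unadjusted p under 0.05, against 4.91% and 4.52% of all clusters. In 9 clusters every Zfp125 array was above every EV array, and in 0 below, against 3.2% and 3.03% of all clusters.

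In Rpl13a, 4 snoRNAs of the Snord class are measured. These snoRNAs are known in mouse and hamster cells for a part in cell death under an excess of saturated fatty acids. Snord32a, whose cluster also names Rpl13a, had levels of 11.63, 11.63, 11.67 and 11.48 in Zfp125 cells, against 11.06, 11.27, 11.07 and 11.23 in EV cells. Every Zfp125 array was above every EV array, and the difference was 0.44 ± 0.09 (adjusted p = 0.123). Snord35a differed by 0.38 ± 0.10, Snord34 by 0.40 ± 0.14 and Snord33 by 0.13 ± 0.09. The Rpl13a cluster that names no snoRNA differed by -0.10 ± 0.09. That cluster is at a mean level of 5.39, and it names Flt3l first.

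Snord68, in Rpl13, had levels of 7.50, 7.73, 7.39 and 7.38 in Zfp125 cells, against 6.99, 6.66, 6.59 and 7.10 in EV cells. The groups did not overlap, and the mean was 1.58-fold higher in Zfp125 cells, a difference of 0.66 ± 0.14 (adjusted p = 0.130). The 4 Rpl13 clusters that name no snoRNA lay between -0.18 and -0.06. Snord16a, in Rpl4, had levels of 10.73, 10.74, 10.54 and 10.43 in Zfp125 cells, against 9.93, 10.13, 10.02 and 10.18 in EV cells. Its difference was 0.55 ± 0.10 (adjusted p = 0.105), beside 0.04 ± 0.08 for the Rpl4 mRNA described above.

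Snord58b, in Rpl17, had levels of 8.58, 8.48, 8.47 and 8.63 in Zfp125 cells, against 7.90, 7.78, 7.69 and 8.21 in EV cells. This was the lowest adjusted p among the 26 hosted snoRNA clusters, 0.0958, at a difference of 0.65 ± 0.12. Rpl17 itself differed by -0.29 ± 0.17, in a cluster at a mean level of 3.63, below the median level of all clusters. Snord83b, in Rpl3, differed by 0.42 ± 0.09 (adjusted p = 0.129), while its host differed by -0.10 ± 0.09. Snord43, in the same gene, differed by -0.06 ± 0.13. Snora33, in Rps12, had levels of 10.44, 10.51, 10.52 and 10.39 in its brighter cluster in Zfp125 cells, against 9.95, 10.04, 9.91 and 10.22 in EV cells. That is a difference of 0.43 ± 0.09 (adjusted p = 0.146), beside -0.22 ± 0.08 for the mRNA. Its dimmer cluster differed by 0.07 ± 0.12.

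Pairing each snoRNA with its host gave 18 hosts with 26 snoRNA clusters. The snoRNA's difference was above that of its host in 25 of the 26. The exception was Snora52, in Rplp2, at -0.10 beside 0.06. Over the 18 hosts the median difference was -0.08 with 4 positive. The host clusters of Rpl17, Rpl37 and Rplp2 were dim, at mean levels of 3.63, 4.09 and 4.69, beside a median of 4.34 over all clusters. Array by array, the median of the hosted snoRNAs minus the median of the host clusters that name no snoRNA was 0.16, 0.27, 0.19 and 0.11 on the Zfp125 arrays, against -0.18, -0.23, -0.16 and -0.05 on the EV arrays. With identical host clusters each counted, the groups did not overlap, and the gap of 0.37 between the classes exceeded the SD within groups, 0.07. No test was made of this gap, since the classes were set with results of these data known.

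**Figure D5:**
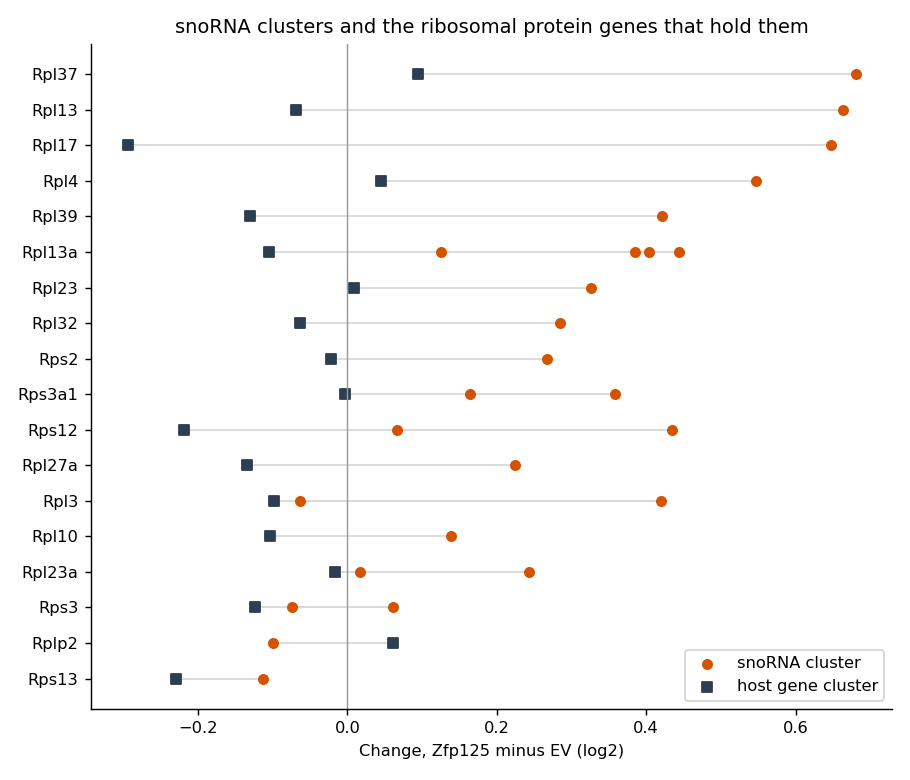
Difference (Zfp125 minus EV, log2) of each of 26 snoRNA clusters (circles) and of the brightest cluster without a snoRNA of the 18 ribosomal protein genes that hold them (squares). In 25 of the 26 pairs the snoRNA lies to the right of its host, and the exception is Snora52 in Rplp2.

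Clusters of snoRNAs that lie elsewhere gave values of the same sign. Of 101 such clusters some hold identical values, and 85 remain with these counted once. The 85 had a median difference of 0.26, and 69 of them, 81.2%, were positive. With all 101 the median was 0.20. At an unadjusted p under 0.05, 41 of the 85 were higher and 1 lower, against 4.91% and 4.52% of all clusters. By the adjusted p 0 were called, against 0.148% of all clusters. On class medians, the Zfp125 arrays were above the EV arrays in this class too. The hosted Snord clusters had a median of 0.36 (n = 17) and the hosted Snora clusters 0.27 (n = 9). RNA was purified on columns before amplification, and how far recovery of short RNAs differed between samples was not tested.

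Whether hosted snoRNAs were called depended on the fit. With clusters above the median level, 4 of 23 were called, against 1.12% of all clusters in that fit, and with clusters above the 25th percentile 0 of 25, against 0.303%. With a trended and robust prior on all clusters 5 of 26 were called, against 0.474%. With named clusters only 7 of 26 were called, against 1.03%. Of these 7, 2 are also members, and 2 of 165 members is near that share. They were Snord32a in Rpl13a (adjusted p = 0.0370) and Snord68 in Rpl13 (adjusted p = 0.0255), the clusters that name a snoRNA as well. No member cluster without a snoRNA name was called under any of the fits tried.

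The mitochondrial ribosomal proteins, built into a separate ribosome and encoded by nuclear genes, served as the closest comparison. Of 93 clusters 0 were called, against 0.148% of all clusters, with a median difference of -0.03 and a range from -0.36 to 0.33. At an unadjusted p under 0.05, 2 were higher and 5 lower, against 4.91% and 4.52% of all clusters. On class medians the Zfp125 and EV arrays overlapped.

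Lists of other genes of ribosome production, here and in the paragraphs that follow, gave 0 calls, against 0.148% of all clusters. At that share lists of these sizes would give few calls or none. Of 18 further TOP mRNAs measured, 0 were called and the median difference was 0.01. Among them Snhg1, a non-coding snoRNA host, differed by 0.23 ± 0.10, the elongation factor subunit Eef1g by 0.14 ± 0.08 and Eif3h by -0.14 ± 0.10. Rpsa and Fau, small subunit genes outside the name rule, differed by -0.00 ± 0.09 and 0.06 ± 0.08. Of 52 ribosome assembly factors 0 were called, with a median of -0.000705. Rpf2, which brings Rpl5 and Rpl11 into the particle, differed by 0.37 ± 0.15 (adjusted p = 0.461), Bop1 by -0.17 ± 0.09 and the pseudouridine synthase Dkc1 by -0.17 ± 0.09.

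Of 23 initiation factors 0 were called, with a median of -0.01. Eif6, which keeps the subunits apart and helps to make the large one, averaged 8.13 ± 0.10 in Zfp125 cells and 8.39 ± 0.08 in EV cells, a difference of -0.26 ± 0.09 (adjusted p = 0.386). Eif4a1, the helicase that unwinds mRNA, differed by 0.29 ± 0.10 (adjusted p = 0.407), and Eif3k by -0.20 ± 0.09. Of 12 subunits and factors of RNA polymerase I 0 were called, with a median of 0.05. Taf1d, whose gene itself holds snoRNAs, differed by 0.45 ± 0.14 (adjusted p = 0.331), Taf1b by -0.21 ± 0.14 and Polr1a by 0.14 ± 0.10.

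Among 18 regulators of ribosomal protein mRNAs 0 were called, with a median of -0.07 and 6 positive. Gabpa, the ETS factor whose core motif was counted above, had levels of 5.66, 5.93, 5.83 and 5.84 in Zfp125 cells, against 6.33, 6.08, 6.40 and 5.98 in EV cells. Every Zfp125 array was below every EV array, and the difference was -0.38 ± 0.12 (adjusted p = 0.324). Mycn, a transcription factor of the Myc family, differed by -0.31 ± 0.10 (adjusted p = 0.361), and its partner Max by -0.14 ± 0.09.

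On the scale of the whole table, correlations between arrays were 0.977 to 0.984 and array medians 4.32 to 4.37. Of 7 hepatocyte markers measured, 1 was called, against 0.148% of all clusters. It was Fgb, the beta chain of fibrinogen, which fell by 1.21 (adjusted p = 0.0376). The median difference of the 7 was -0.38, and 1 was positive. At an unadjusted p under 0.05, 4 were lower and 0 higher, against 4.52% and 4.91% of all clusters. The summed level of the 7 was 63.5 to 65.5 in Zfp125 cells and 66.1 to 68.0 in EV cells. Markers of cholangiocytes (4 measured), fibroblasts and stellate cells (7), endothelium (5), macrophages (5) and leukocytes (3) gave 0 calls, and their summed levels overlapped between groups. The part of the hepatocyte markers' shift in the values above was not tested.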

How the data were processed

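RNA from AML12 cells was measured on MoGene 2.0 ST arrays, 4 of Zfp125 and 4 of EV cells. The deposited values are log2 expression values per transcript cluster, a scale read from the values. The submitters' processing notes name Transcriptome Analysis Console and Affymetrix Expression Console. How the background was corrected and arrays were normalized is not given in the sources used, and no array was normalized again.

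Clusters were named through the platform annotation. Linear models were fitted to all 41345 clusters with limma 3.58.1 in R 4.3.3 (lmFit, eBayes), two-sided, with Benjamini-Hochberg adjustment over all clusters, and a cluster was called at an adjusted p under 0.05. The fit was tested on simulated data. Since separate cultures are not stated, p-values reflect the spread among these samples alone, possibly a technical one. Depth has no meaning for arrays, and their number limits precision. Plots used matplotlib 3.10.9.

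The members and lists were chosen with earlier results of these data known. The level of 8, the brightest cluster that names no snoRNA as the gene's value, the split by snoRNA names and the merging of identical clusters were set after the values were seen. Hosts were found by position in the GRCm38.p6 RefSeq table, which gives no strand, so a snoRNA on the opposite strand was not separated from one on the same strand. RefSeq protein-coding genes that meet the name rule number 88, and 8 have no cluster and are not analysed here. Genes were named by a rule: the 6 members with the smallest p in each subunit and among hosts, the stalk proteins, the listed paralogues, the 6 brightest and 6 dimmest members, the 6 hosted snoRNAs with the smallest p and the 3 smallest p of each list. Rpl6, Rpl11, Rpl17, Rpl24, Rps6, Snord33, Snord35a, Snord43 and Snora52 were chosen after their values were seen. Same-numbered arrays did not deviate together (correlations from -0.04 to 0.03, with 2 of 8 arrays closest to their own number), so numbers were not taken as pairs. Alternatives covered scaling, dim clusters, variance moderation, array weights, clusters tested, the definition of members and hosts, the replicate block and leaving out each array.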

Additional observations from a re-analysis of the deposited data

Results flagged for a closer look

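Among the clusters named above, 106 groups of 4 arrays were examined for a single array that stands apart by Dixon's criterion, and 8 were found; chance gives about 1 group in 20. In Zfp125 cells, Rpl22l1 was 3.86 on replicate 2 (other arrays 4.06 to 4.08), Rpl7l1 was 3.94 on replicate 1 (4.33 to 4.34), Eif3h was 8.10 on replicate 2 (7.83 to 7.87) and Polr1a was 7.50 on replicate 4 (7.35 to 7.36). In EV cells, Rpl22l1 was 4.29 on replicate 2 (4.11 to 4.13), Rplp1 was 11.23 on replicate 2 (10.93 to 10.95), Rpl37a was 8.81 on replicate 3 (8.96 to 8.98) and Rplp0 was 7.15 on replicate 3 (7.52 to 7.57). None of these clusters was called.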

How the results depend on the processing

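Ribosomal protein clusters called, 0 as reported, numbered 1 of 149 among clusters above the median level and 1 of 165 with a trended and robust prior. They numbered 2 of 165 with named clusters only. Over all clusters these fits called 1.12%, 0.474% and 1.03%, and each member called also names a snoRNA. Hosted snoRNA clusters called, also 0, numbered 4 of 23, 5 of 26 and 7 of 26 under these settings. With the brightest cluster of each gene with 1 symbol they numbered 5 of 15, against 240 of all 22180 clusters. That last setting gave a median difference of 0.36 for hosted snoRNAs, and tests fewer clusters. Both counts stayed at 0 with each array left out. The median of snoRNA clusters outside member genes was 0.20 with all clusters and 0.26 with identical ones counted once, a count added after seeing the data. The median of all members stayed below 0 under every setting, from -0.05 to -0.03 with 1 array left out. The gap between large and small subunit ranged from 0.00659 to 0.0704 with 1 array left out and was 0.00379 with identical clusters counted once. The gap between hosts and others ranged from -0.0485 to -0.000360 with 1 array left out. It was -0.00812 with 1 cluster for each gene, -0.00399 with a textbook list of hosts, -0.0609 without clusters that name a snoRNA and 0.00406 with identical clusters counted once, the last pair of settings chosen after seeing the data. Neither gap had a test. With the replicate block 0 ribosomal protein clusters and 0 of all clusters were called. Calls over all clusters, 61, were 4 without variance moderation, 196 with the trended prior, 232 above the median level, 94 above the 25th percentile, 240 with 1 cluster for each gene, 260 with named clusters only and 16 to 61 with 1 array left out. Of 53 named clusters, 8 changed the sign of an uncalled difference in 29 of 977 values, and none of the 53 was called as reported. No detection call was used, so dim clusters could not be marked as undetected.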
